A study of Homo sapiens with 16 samples.

Results

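The change that knockdown of the long noncoding RNA SCAT7 made to the cisplatin response was measured in A549/cDDP, a cisplatin-resistant derivative of the human lung adenocarcinoma line A549. It rests on all 8 libraries of transfected A549/cDDP cells, of 16 libraries in the study. They form 4 groups of 2: SCAT7 gapmer with cisplatin, SCAT7 gapmer with solvent, control gapmer with cisplatin, and control gapmer with solvent. A gapmer is an antisense oligonucleotide, here with locked nucleic acid bases, that guides RNase H to cut its target RNA. Loss of SCAT7 and other effects of the targeting gapmer cannot be told apart with these libraries. Per the labels, 35000 cells were plated, 12 pmol of gapmer was delivered with a lipid reagent, and RNA was taken at 48 h, the last 24 h in cisplatin or in its solvent. The concentration of cisplatin is given as 15 mM in the labels, a unit that was not checked here. The line itself was cultured in medium with cisplatin at the same labelled concentration, so the solvent groups also came from cells with long exposure to the drug. The sample labels mark the targeting gapmer without naming its target. The design text of the series names SCAT7, and neither says whether more than one targeting sequence was used or whether the line is a clone.

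For each gene the cisplatin response is the log2 change between cisplatin and solvent under one gapmer. The quantity reported here is the response with the SCAT7 gapmer minus the response with the control gapmer. The same number is the effect of the SCAT7 gapmer in cisplatin minus its effect in solvent. It is called the difference in response below, and it is positive where the response was higher with the SCAT7 gapmer. A gene is called higher or lower where its limma p, adjusted over 17198 genes, was under 0.05. Levels are in FPKM, fragments scaled by gene length and library total, so they can be compared between genes.

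Cisplatin forms bonds between bases of DNA, and the damage stabilises the transcription factor p53. p53 raises a set of target genes, among them the cell cycle inhibitor CDKN1A (p21), the feedback ubiquitin ligase MDM2 and the repair factor DDB2. Genes of mitosis, such as the kinase PLK1 and cyclin B1, are made in the G2 phase of dividing cells. Their promoters are known for CCAAT boxes and for the cell cycle homology region (CHR), an element bound by the DREAM complex, which represses these genes when p21 is high.

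Promoters of 5 genes on which the results turn are shown because they carry, or lack, the letters of these elements. The sequences are from RefSeq (GRCh38.p14), 5′ to 3′ on the strand of the gene, from 250 bases before to 50 bases after the first listed start. Capitals mark CHR letters (TTTGAA or TTCGAA, either strand) and CCAAT letters (either strand) in the promoters of PLK1 (chr16:23678639-23678938, + strand), CENPA (chr2:26785806-26786105, + strand) and CCNB1 (chr5:69166900-69167199, + strand). In FDXR (chr17:74872945-74873244, − strand) they mark the only match to the p53 decamer consensus. CDKN1A (chr6:36678464-36678763, + strand) held neither a CHR, a CCAAT box nor a decamer in this window.
PLK1: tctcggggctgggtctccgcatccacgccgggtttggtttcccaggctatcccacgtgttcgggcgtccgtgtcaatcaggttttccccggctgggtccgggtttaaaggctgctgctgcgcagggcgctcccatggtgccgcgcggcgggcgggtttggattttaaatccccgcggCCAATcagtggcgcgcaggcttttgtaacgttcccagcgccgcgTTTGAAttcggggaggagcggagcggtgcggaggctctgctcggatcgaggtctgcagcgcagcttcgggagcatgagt
CENPA: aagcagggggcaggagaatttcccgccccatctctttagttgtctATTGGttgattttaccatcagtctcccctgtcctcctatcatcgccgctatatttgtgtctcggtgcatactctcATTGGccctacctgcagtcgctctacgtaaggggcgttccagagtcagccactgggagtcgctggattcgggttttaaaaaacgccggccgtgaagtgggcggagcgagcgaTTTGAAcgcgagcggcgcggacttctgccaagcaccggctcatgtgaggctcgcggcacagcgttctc
CCNB1: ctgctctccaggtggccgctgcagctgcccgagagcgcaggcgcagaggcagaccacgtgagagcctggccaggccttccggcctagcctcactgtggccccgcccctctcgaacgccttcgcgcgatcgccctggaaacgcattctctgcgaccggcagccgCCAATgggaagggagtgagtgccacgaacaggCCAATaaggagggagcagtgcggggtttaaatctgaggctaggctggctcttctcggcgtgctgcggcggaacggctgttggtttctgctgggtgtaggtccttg
CDKN1A: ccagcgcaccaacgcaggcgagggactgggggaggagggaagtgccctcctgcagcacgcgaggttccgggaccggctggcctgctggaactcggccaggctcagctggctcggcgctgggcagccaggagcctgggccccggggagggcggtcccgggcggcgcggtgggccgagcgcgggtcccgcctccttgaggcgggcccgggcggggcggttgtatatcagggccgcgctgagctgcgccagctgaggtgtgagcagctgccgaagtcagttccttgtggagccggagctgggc
FDXR: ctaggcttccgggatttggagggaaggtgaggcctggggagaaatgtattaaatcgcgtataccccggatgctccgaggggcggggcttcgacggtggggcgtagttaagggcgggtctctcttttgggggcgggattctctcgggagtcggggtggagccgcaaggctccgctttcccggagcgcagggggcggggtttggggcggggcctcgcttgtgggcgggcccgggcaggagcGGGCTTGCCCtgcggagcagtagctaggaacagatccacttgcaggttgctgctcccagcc

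The CHR letters lay 29 bases before the start in PLK1 and 18 bases before it in CENPA. CCAAT letters lay 73 bases before the start in PLK1, 205 and 130 bases before it in CENPA, and 87 and 55 bases before it in CCNB1. No CHR letters were found in the window of CCNB1.

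The libraries differed in ways that touch the results. Depth was 31320000 to 33380000 fragments in the 4 SCAT7 gapmer libraries and 42350000 to 43130000 in the 4 control gapmer libraries. Replicates were farther apart under the SCAT7 gapmer, with a median absolute log2 gap of 0.122 for the SCAT7 gapmer in cisplatin, 0.0957 for the SCAT7 gapmer in solvent, 0.0665 for the control gapmer in cisplatin and 0.0722 for the control gapmer in solvent. The gapmer was the main axis of the 8 libraries, with 73.2% of the variance on the first principal component. The keratins KRT8 and KRT18 were abundant, at 1610 to 2180 and 634 to 993 FPKM over the 8 libraries. The surfactant genes SFTPB, SFTPC and SFTPA1 were at most 0.194 FPKM in each of the 16 libraries, and EPCAM stood at 0.584 to 1.72 FPKM in the 8. Of 11 markers of leukocytes, endothelium and red cells, all stayed under 0.5 FPKM in the 8 libraries, and of 5 fibroblast markers COL1A1 alone passed that level, at 25.9 to 40.6 FPKM.

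SCAT7 was read as ELF3-AS1 (ENSG00000234678, hg38 chromosome 1, 201995696 to 202010463, − strand), which the RefSeq gene table lists under that name. It overlaps ELF3, an epithelial transcription factor gene on the + strand, and whether the counting used strand is not given in the sources used here. ELF3-AS1 stood at 1.69 and 2.18 FPKM with the SCAT7 gapmer in cisplatin and at 0.594 and 0.837 FPKM with the SCAT7 gapmer in solvent. It stood at 3.73 and 3.23 FPKM with the control gapmer in cisplatin and at 2.56 and 3.57 FPKM with the control gapmer in solvent. The SCAT7 gapmer libraries were below the control gapmer libraries under both treatments, and the cisplatin pair kept more of the RNA than the solvent pair. The mean under the SCAT7 gapmer was 55.5% of the control gapmer mean in cisplatin and 23.4% in solvent. ELF3-AS1 fell by 0.71 on the log2 scale in cisplatin (limma adjusted p = 0.00355) and by 1.54 in solvent (limma adjusted p = 7.5e-06). The difference in response was 0.83 ± 0.235 (SE) and did not pass the test (limma adjusted p = 0.14; 0.0941 to 0.401 over 18 alternatives). The depth of the knockdown differed between the treatments in these means, and its part in the results below was not tested.

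**Figure D1:**
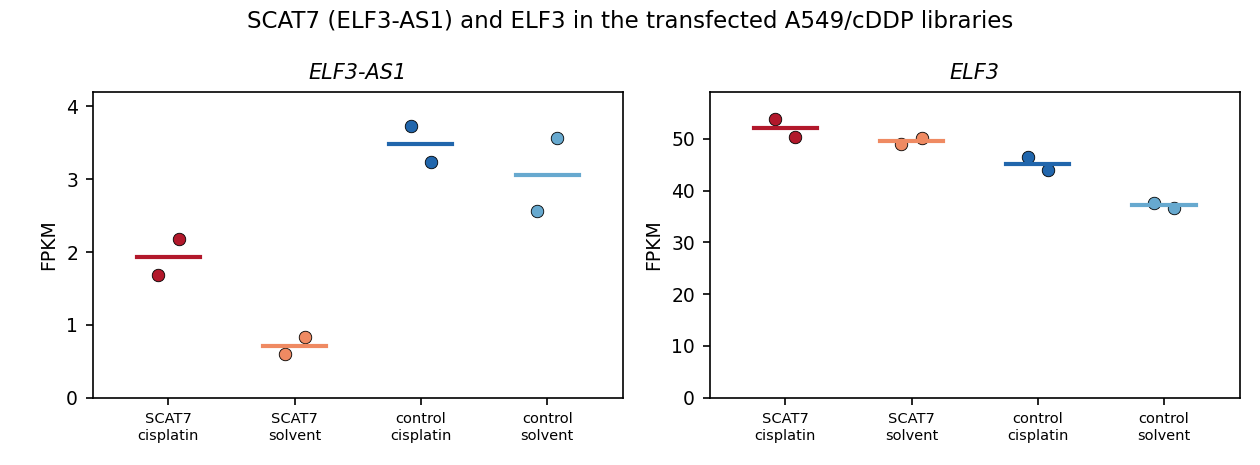
Levels of ELF3-AS1 (SCAT7) and of the overlapping gene ELF3 in FPKM (linear axes from 0), by gapmer and treatment. Points are libraries and bars are means of 2 libraries. ELF3-AS1 is at 0.594 to 2.18 FPKM with the SCAT7 gapmer and at 2.56 to 3.73 FPKM with the control gapmer.

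ELF3 stood at 53.8 and 50.3 FPKM with the SCAT7 gapmer in cisplatin, at 48.9 and 50.2 FPKM with it in solvent, at 46.4 and 44 FPKM with the control gapmer in cisplatin and at 37.6 and 36.7 FPKM with it in solvent. Its difference in response was −0.21 ± 0.082 (SE) and did not pass the test (limma adjusted p = 0.282). The SCAT7 partner proteins HNRNPK and YBX1, which bind RNA, had differences of 0.14 and 0.17 that did not pass (limma adjusted p = 0.332 and 0.197). TOP1, the topoisomerase that relaxes DNA ahead of polymerases, had a difference of −0.16 that did not pass (limma adjusted p = 0.268). Of 15 tested genes of the locus and its partners, 1 was called, against 0.93% of all genes. It was YBX3, a relative of YBX1, lower by 0.25 (limma adjusted p = 0.0166). In a fit of the 8 transfected libraries alone YBX3 did not pass (limma adjusted p = 0.153).

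Of 17198 genes, 84 (0.488%) had a higher and 76 (0.442%) a lower response to cisplatin with the SCAT7 gapmer than with the control gapmer, 160 (0.93%) in all. Among the 84 were 24 genes on the lists of mitosis (30 tested) and DNA replication (37 tested). Among the 76 were 18 on the list of p53 targets (30 tested). In 80 of the 84 the mean response was above 0 with the SCAT7 gapmer and below 0 with the control gapmer. Over all genes tested, the mean responses had opposite signs, in either order, in 7246 of 17198. The median response of the 84 was 0.29 with the SCAT7 gapmer and −0.25 with the control gapmer. In the 76 the median response was −0.02 with the SCAT7 gapmer and 0.41 with the control gapmer. The count of 80 and these medians are of genes chosen by their difference. That choice favours opposite signs, and these values describe its shape only.

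**Figure D2:**
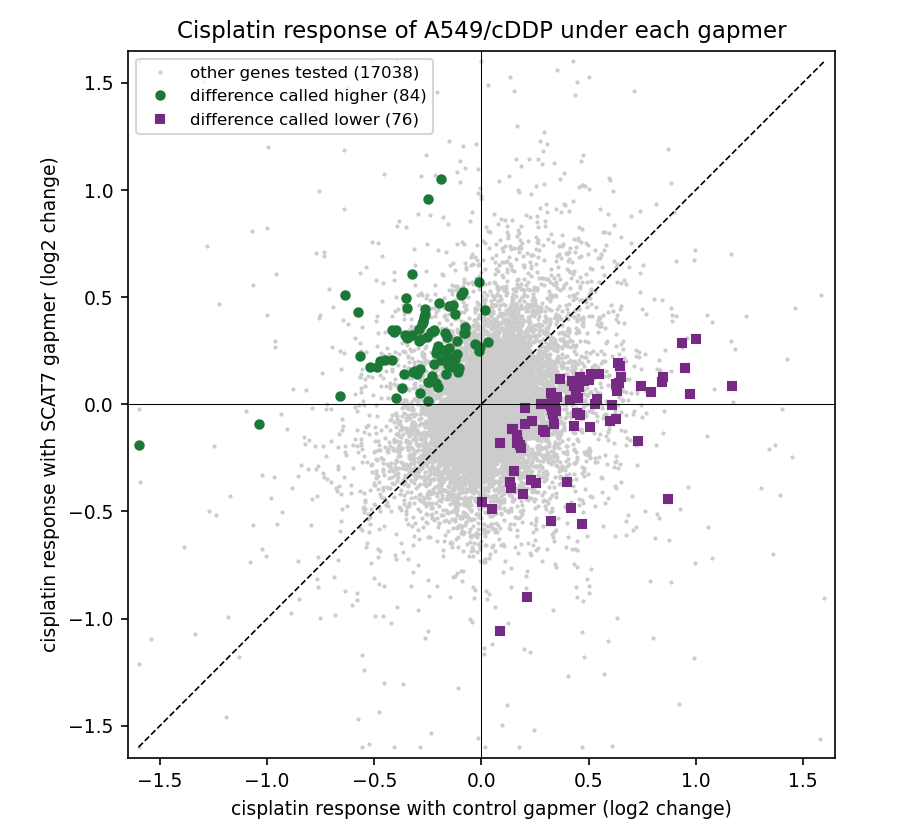
Cisplatin response of each of 17198 genes (log2 change, cisplatin over solvent) with the SCAT7 gapmer on the vertical axis and with the control gapmer on the horizontal axis. Values beyond 1.6 in either direction are drawn at the edge, and the dashed line marks equal responses. The 84 genes called higher lie above the line, 80 of them to the upper left of the origin, and the 76 called lower lie below it.

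The count depends on the libraries that set the spread. All 16 libraries of the study shared one estimate of it, with 8 residual degrees of freedom. A fit of the 8 transfected libraries alone, with 4 residual degrees of freedom, called 10 genes (0.0581%): CDH4, PLK1, CENPA and ARHGAP11A higher, and CDKN1A, FDXR, GDF15, GRIN2C, DGKA and the pseudogene ENSG00000279208 lower. In that fit the 160 genes had a median adjusted p of 0.153 (largest 0.257), and all 160 had an unadjusted p under 0.05; both fits use the same 8 libraries for the difference itself. Leaving out a library gave 45 genes without control gapmer solvent replicate 1, 52 without its replicate 2, 70 without control gapmer cisplatin replicate 1 and 48 without its replicate 2. It gave 55 without SCAT7 gapmer solvent replicate 1 and 462 without SCAT7 gapmer cisplatin replicate 2.

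The responses on which the difference is built share no library. Cisplatin raised 502 genes (2.92%) and lowered 217 (1.26%) with the SCAT7 gapmer, and it raised 288 (1.67%) and lowered 147 (0.855%) with the control gapmer. After median ratio scaling these became 289 and 268 genes with the SCAT7 gapmer and 210 and 194 with the control gapmer. Of the raised genes, 59 were in both sets, which is 11.8% of the SCAT7 gapmer set and 20.5% of the control gapmer set. Of the lowered genes 20 were in both, 9.22% and 13.6% of the sets in the same order. Across genes, which are not independent, the responses had Pearson's r of 0.17. The median absolute response was 0.105 with the SCAT7 gapmer and 0.0812 with the control gapmer, against a wider spread of replicates under the SCAT7 gapmer. In the 8-library fit the response with the SCAT7 gapmer had 0 called genes (3207 at an unadjusted p under 0.05), and the response with the control gapmer had 146. With library weights these counts were 11 and 1018. Without SCAT7 gapmer solvent replicate 1 the response with the SCAT7 gapmer had 9 called genes, without SCAT7 gapmer cisplatin replicate 1 it had 190, and without replicate 2 of that group 1626. It had 447 and 446 without control gapmer cisplatin replicates 1 and 2. Without control gapmer solvent replicates 1 and 2 the response with the control gapmer had 179 and 140 called genes, and without control gapmer cisplatin replicates 1 and 2 it had 140 and 137. Calls of the response with the SCAT7 gapmer below are those of the 16-library fit.

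The targets of p53 responded to cisplatin with the control gapmer and much less with the SCAT7 gapmer. Of 30 tested p53 targets, cisplatin raised 7 with the SCAT7 gapmer (2.92% of all genes) and 27 with the control gapmer (1.67%). It lowered none with either, against 1.26% and 0.855% of all genes in the same order. The median response was 0.08 with the SCAT7 gapmer and 0.48 with the control gapmer, where the median over all genes tested was −0.01 and 0.02. The difference in response was lower in 18 of the 30 and higher in 0, against 0.442% and 0.488% of all genes, with a median of −0.39 against −0.02. In the 8-library fit 3 were lower (0.0349% of all genes were), and cisplatin raised 0 with the SCAT7 gapmer and 22 with the control gapmer (0.622% of all genes). The 7 became 1 without SCAT7 gapmer solvent replicate 1, 2 without its replicate 2, and 2 without SCAT7 gapmer cisplatin replicate 1. The count of 18 became 11 without control gapmer solvent replicate 2 and 11 without control gapmer cisplatin replicate 2.

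CDKN1A, the p21 inhibitor of cyclin-dependent kinases (chromosome 6, 36676460 to 36687339), had, with FDXR, the smallest adjusted p of all genes. It stood at 661 and 666 FPKM with the SCAT7 gapmer in cisplatin and at 626 and 623 FPKM with it in solvent. It stood at 447 and 449 FPKM with the control gapmer in cisplatin and at 266 and 269 FPKM with it in solvent. The SCAT7 gapmer libraries were above all control gapmer libraries, and within them the treatments lay close together, while the control gapmer treatments lay far apart. The response was 0.09 with the SCAT7 gapmer (limma adjusted p = 0.0862) and 0.74 with the control gapmer (limma adjusted p = 3.12e-08). Its difference in response was −0.66 ± 0.0376 (SE; limma adjusted p = 1.38e-05). It passed under all 18 alternatives, with p between 3.11e-06 and 0.0128.

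MDM2, the ligase that marks p53 for destruction, stood at 432 and 417 FPKM with the SCAT7 gapmer in cisplatin and at 484 and 411 FPKM with it in solvent, against 248 and 273 FPKM with the control gapmer in cisplatin and 165 and 171 FPKM with it in solvent. With the SCAT7 gapmer the libraries of both treatments overlapped. The difference was −0.70 ± 0.0929 (SE; limma adjusted p = 0.00574, and 0.123 in the 8-library fit). GDF15, a secreted stress cytokine, stood at 199 and 215 FPKM with the SCAT7 gapmer in cisplatin, at 206 and 195 FPKM with it in solvent, at 134 in both control gapmer cisplatin libraries and at 69.4 and 66.2 FPKM in the control gapmer solvent libraries. Its treatments overlapped with the SCAT7 gapmer and lay far apart with the control gapmer. The difference was −0.93 ± 0.0738 (SE; limma adjusted p = 0.00015).

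**Figure D3:**
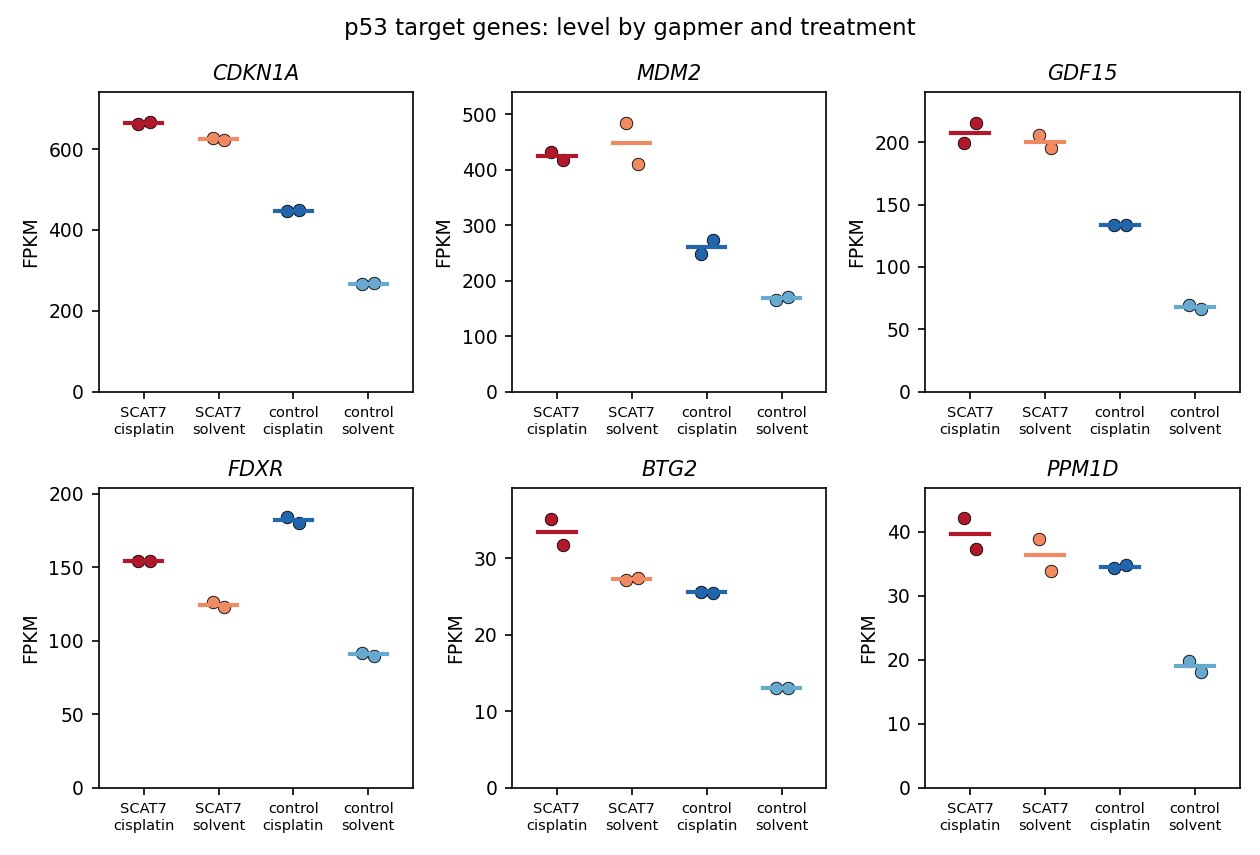
Levels of 6 p53 target genes in FPKM (linear axes from 0), by gapmer and treatment. Points are libraries and bars are means of 2 libraries. In each panel cisplatin is above solvent with the control gapmer, and the gap is smaller or absent with the SCAT7 gapmer: CDKN1A is at 661 and 666 against 626 and 623 FPKM with the SCAT7 gapmer and at 447 and 449 against 266 and 269 FPKM with the control gapmer.

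The members split by where the SCAT7 gapmer left them in cisplatin. In solvent the gapmer raised 27 of the 30 targets (33.2% of all genes) and lowered 0 (22.7%), with a median effect of 0.70. In cisplatin it raised 21 (28.6%) and lowered 3 (21.1%), with a median of 0.30. The 3 were FDXR, DDB2 and BAX. FDXR, a mitochondrial reductase that passes electrons to ferredoxin (chromosome 17, 74862497 to 74873031), stood at 154 and 154 FPKM with the SCAT7 gapmer in cisplatin, at 126 and 123 FPKM with it in solvent, at 184 and 180 FPKM with the control gapmer in cisplatin and at 91.9 and 89.4 FPKM with it in solvent. Its order of levels thus crossed: the SCAT7 gapmer lowered it by 0.24 in cisplatin and raised it by 0.46 in solvent. Cisplatin raised FDXR under both gapmers, by 0.31 with the SCAT7 gapmer and by 1 with the control gapmer. The difference was −0.70 ± 0.0422 (SE; limma adjusted p = 1.38e-05).

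DDB2, which recognises damaged bases in nucleotide excision repair, stood at 136 and 142 FPKM with the SCAT7 gapmer in cisplatin, at 126 and 126 FPKM with it in solvent, at 178 and 179 FPKM with the control gapmer in cisplatin and at 127 and 124 FPKM with it in solvent. The gapmers lay together in solvent, with an effect of 0.01 (limma adjusted p = 0.897), and DDB2 was lower by 0.36 with the SCAT7 gapmer in cisplatin. Its difference was −0.37 ± 0.0441 (SE; limma adjusted p = 0.003). BAX, which opens the mitochondrial membrane in apoptosis, had a difference of −0.13 that did not pass (limma adjusted p = 0.384).

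The remaining members lower in response ran from −0.72 to −0.33. PPM1D, the phosphatase that switches damage signalling off, was at −0.72, and the sestrins SESN2 and SESN1, brakes on mTOR signalling, were at −0.68 and −0.53. BTG2, which slows proliferation, was at −0.65. BTG2 stood at 35.2 and 31.7 FPKM with the SCAT7 gapmer in cisplatin, 27.2 and 27.4 FPKM with it in solvent, 25.6 and 25.5 FPKM with the control gapmer in cisplatin, and 13.1 in both control gapmer solvent libraries. Cisplatin raised it under both gapmers, by 0.29 and 0.94 in that order. CYFIP2, SPATA18, TP53INP1, ZMAT3, POLH, RRM2B, AEN, FAS and EDA2R completed the 18. POLH is a polymerase that copies past lesions, RRM2B supplies nucleotides for repair, and FAS is a death receptor.

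Not every target followed. TP53I3, a quinone reductase, had a difference of 0.14 (limma adjusted p = 0.657) and rose with cisplatin by 0.43 with the SCAT7 gapmer. GADD45A stood at 525 and 356 FPKM with the SCAT7 gapmer in cisplatin, 497 and 393 FPKM with it in solvent, 184 and 181 FPKM with the control gapmer in cisplatin, and 142 and 144 FPKM with it in solvent. Its replicates were too far apart under the SCAT7 gapmer to resolve the difference of −0.38 (limma adjusted p = 0.437). BBC3 (PUMA), a trigger of apoptosis, had a difference of −0.66 that missed the threshold (limma adjusted p = 0.0716). In untransfected A549/cDDP cells cisplatin raised 10 of the 30 (3.55% of all genes), with a median response of 0.15. That median was closer to the one with the SCAT7 gapmer (0.08, 7 raised) than to the one with the control gapmer (0.48, 27 raised). On this list the control gapmer thus stood apart from untransfected cells, and the difference from them was not tested.

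Genes of mitosis moved the other way. Of 30 tested, all were lower with the SCAT7 gapmer, in cisplatin (median −1.58; 21.1% of all genes were lower) and in solvent (median −2.22; 22.7%). Cisplatin raised 13 of the 30 with the SCAT7 gapmer and lowered 0 (2.92% and 1.26% of all genes), and it raised 0 and lowered 10 with the control gapmer (1.67% and 0.855%). The median response was 0.33 with the SCAT7 gapmer and −0.27 with the control gapmer. The difference in response was higher in 18 and lower in 0, against 0.488% and 0.442% of all genes, with a median of 0.62. All 30 had a difference above 0. In the 8-library fit 2 were higher (0.0233% of all genes), and cisplatin raised 0 with the SCAT7 gapmer and lowered 2 with the control gapmer (0.227%). The 13 became 0 without SCAT7 gapmer solvent replicate 1 and 6 without SCAT7 gapmer cisplatin replicate 2, and the 10 became 2 without any 1 of the 4 control gapmer libraries. The count of 18 became 4 without either control gapmer solvent library, 4 without control gapmer cisplatin replicate 1, 5 without its replicate 2, and 4 without SCAT7 gapmer solvent replicate 1. Fewer dividing cells and less of these RNAs per cell cannot be told apart in bulk RNA.

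PLK1, the kinase that drives entry into mitosis (chromosome 16, 23677656 to 23690367), had the smallest adjusted p of the group. It stood at 25.3 and 26.4 FPKM with the SCAT7 gapmer in cisplatin and at 21.3 and 22.9 FPKM with it in solvent. It stood at 73.4 and 72.2 FPKM with the control gapmer in cisplatin and at 111 and 106 FPKM with it in solvent. Cisplatin libraries were above solvent libraries with the SCAT7 gapmer and below them with the control gapmer, and no groups overlapped. The response was 0.22 with the SCAT7 gapmer and −0.57 with the control gapmer, and the difference was 0.79 ± 0.0609 (SE; limma adjusted p = 0.000132). It passed under all 18 alternatives, with p between 9.91e-05 and 0.023. The promoter of PLK1 shown above holds both CHR and CCAAT letters.

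KIF20A, a kinesin of cell division, had the largest difference on the list. It stood at 6.03 and 7.71 FPKM with the SCAT7 gapmer in cisplatin, at 4.22 and 5.11 FPKM with it in solvent, at 27.3 and 26.6 FPKM with the control gapmer in cisplatin and at 42 and 42.3 FPKM with it in solvent. The difference was 1.14 ± 0.13 (SE; limma adjusted p = 0.00271, and 0.0959 in the 8-library fit). CCNB1, the cyclin that activates CDK1, stood at 39.1 and 46.1 FPKM with the SCAT7 gapmer in cisplatin, at 30.3 and 36.7 FPKM with it in solvent, at 128 and 125 FPKM with the control gapmer in cisplatin and at 172 and 160 FPKM with it in solvent. Its difference was 0.74 ± 0.125 (SE; limma adjusted p = 0.0174). Its response with the SCAT7 gapmer, 0.35, did not pass (limma adjusted p = 0.0504), so the call rests on both gapmers together.

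**Figure D4:**
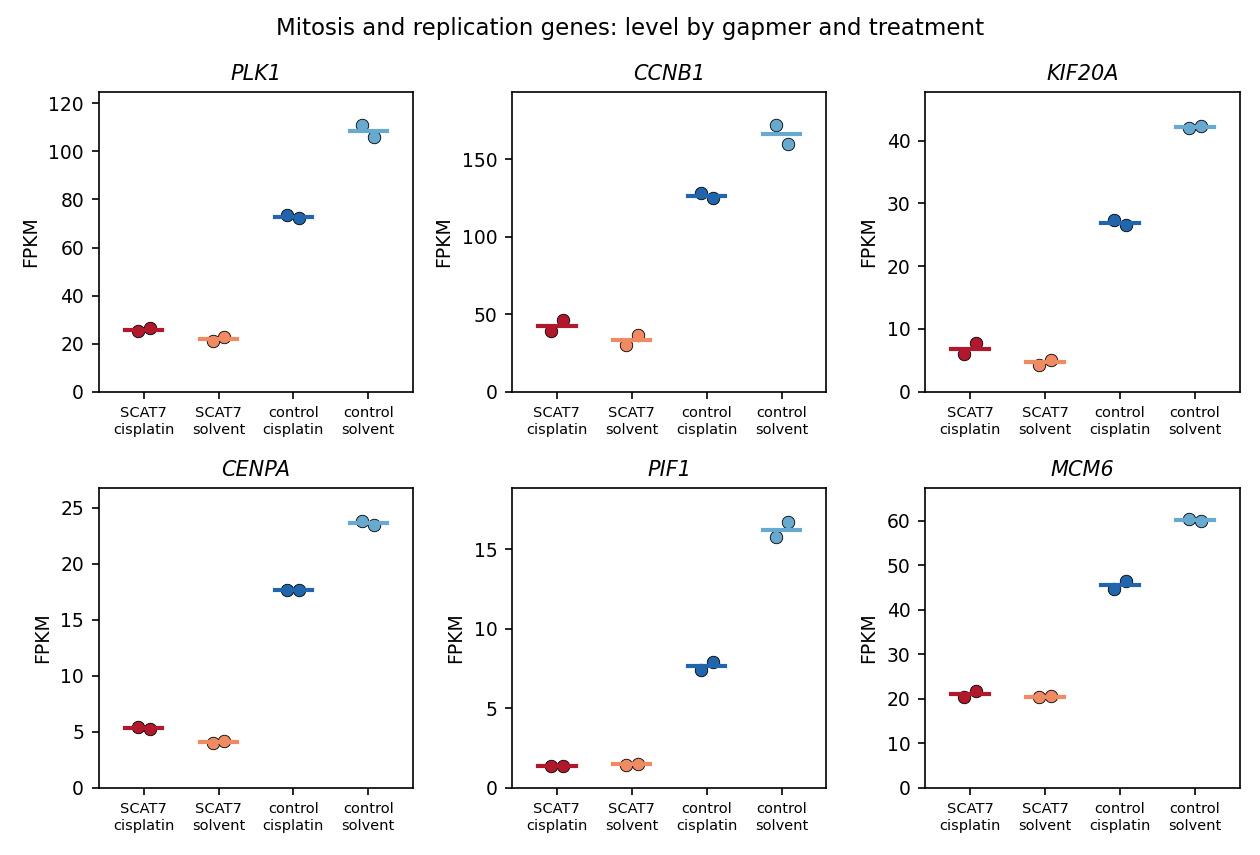
Levels of 4 mitosis genes (PLK1, CCNB1, KIF20A, CENPA), the helicase gene PIF1 and the replication gene MCM6 in FPKM (linear axes from 0), by gapmer and treatment. Points are libraries and bars are means of 2 libraries. Control gapmer levels are lower in cisplatin than in solvent in every panel, as for PLK1 at 73.4 and 72.2 against 111 and 106 FPKM, and SCAT7 gapmer levels are far below them.

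CENPA, the histone that marks centromeres, stood at 5.43 and 5.22 FPKM with the SCAT7 gapmer in cisplatin, at 4.01 and 4.22 FPKM with it in solvent, at 17.7 in both control gapmer cisplatin libraries and at 23.8 and 23.5 FPKM in the control gapmer solvent libraries. It passed in the 8-library fit as well (difference 0.75; limma adjusted p = 0.0217, and 0.0496 in that fit). BUB1, CENPE, CENPF and BIRC5, of the spindle checkpoint, the kinetochore and the chromosomal passenger complex, had differences of 0.68 to 0.71. The other called members were PRC1, ANLN, TPX2, KIF11, CDC20, KIF2C, AURKB, AURKA, CDK1 and TTK, at 0.47 to 0.66. NUSAP1 had the largest adjusted p of the 30, with a difference of 0.28 (limma adjusted p = 0.296). Outside the list, GTSE1 (0.93), DLGAP5 (0.80) and HMMR (0.76), all made in G2 and mitosis, were called higher too.

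Without a gapmer, cisplatin lowered 29 of the 30 mitosis genes in A549/cDDP (4.55% of all genes), with a median response of −0.54. The control gapmer thus had the same direction as untransfected cells, at −0.27, and the SCAT7 gapmer the opposite one, at 0.33. The difference from untransfected cells was not tested.

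Of 37 tested DNA replication genes, the difference in response was higher in 6 and lower in 0, against 0.488% and 0.442% of all genes. Their median difference was 0.27, against −0.02 over all genes, and all 37 had a difference above 0, as did 7660 of the 17198. Cisplatin raised 13 with the SCAT7 gapmer and lowered 0, against 2.92% and 1.26% of all genes. With the control gapmer it raised 1 and lowered 2, against 1.67% and 0.855% of all genes. In the 8-library fit none of the 37 was called for the difference or for cisplatin with the SCAT7 gapmer. The count of 6 became 1 or 2 without either control gapmer library of either treatment or without SCAT7 gapmer solvent replicate 1. The 13 became 1 without SCAT7 gapmer solvent replicate 1, 6 without SCAT7 gapmer cisplatin replicate 1, and 8 without any 1 of the 4 control gapmer libraries. MCM6, a subunit of the replicative helicase, stood at 20.3 and 21.7 FPKM with the SCAT7 gapmer in cisplatin, at 20.4 and 20.6 FPKM with it in solvent, at 44.6 and 46.4 FPKM with the control gapmer in cisplatin and at 60.4 and 60 FPKM with it in solvent. With the SCAT7 gapmer its treatments lay together, while with the control gapmer MCM6 fell by 0.40 in cisplatin (limma adjusted p = 0.000168). The difference was 0.43 ± 0.0545 (SE; limma adjusted p = 0.00475).

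FEN1, the nuclease that trims Okazaki fragments, showed the other form. It stood at 39.4 in both SCAT7 gapmer cisplatin libraries, at 28.8 and 32.4 FPKM with the SCAT7 gapmer in solvent, at 93.5 and 92.3 FPKM with the control gapmer in cisplatin and at 99.4 and 96.5 FPKM with it in solvent. Cisplatin raised FEN1 by 0.36 with the SCAT7 gapmer and changed it by −0.08 with the control gapmer (limma adjusted p = 0.518), a difference of 0.44 ± 0.0647 (SE; limma adjusted p = 0.00992). GINS1 and RRM2 had differences of 0.41 each, MCM7 0.34 and CDC6 0.31. H2AZ1, a histone variant made in growing cells, was the 1 called member of 17 histone genes, at 0.61, against 0.488% of all genes called higher. Its limma adjusted p was 0.0106, and 0.0915 in the 8-library fit, where it did not pass.

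The promoter letters were counted over protein-coding genes with a RefSeq entry in the table, 10471 of 12965 tested. CHR letters were in 35 of 66 promoters of genes called higher (53%), in 4 of 53 of genes called lower (7.55%) and in 1150 of the 10471 (11%). CCAAT letters were in 47 of the 66 (71.2%), in 17 of the 53 (32.1%) and in 3818 of the 10471 (36.5%). Both were in 31 of the 66 (47%), in 0 of the 53 and in 4.68% of the tested genes. The p53 decamer was in 5 of the 66 (7.58%), in 6 of the 53 (11.3%) and in 5.2% of the tested genes. On the p53 list itself it was in 2 of 25 promoters (8%). Only the single decamer was searched, not a pair of them, and nothing outside the window was read. Over all 27305 promoters of the table, CHR letters were in 16.6%, CCAAT letters in 35.7% and the decamer in 6.54%. A match is a string of letters and not a measured site, and no test was made of these shares.

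Other genes lower in response lay outside the p53 list. GRIN2C, a subunit of the NMDA receptor, had the largest of those with at least 5 FPKM. It stood at 39.3 and 35.6 FPKM with the SCAT7 gapmer in cisplatin, at 37.1 and 33.4 FPKM with it in solvent, at 17.1 and 17.8 FPKM with the control gapmer in cisplatin and at 7.68 and 7.29 FPKM with it in solvent. The difference was −1.08 ± 0.119 (SE; limma adjusted p = 0.00249) and passed under all 18 alternatives. GRIN2C (chromosome 17, 74842023 to 74861504, − strand) lies beside FDXR on the same strand. VWCE (−0.90), the pseudogene NBEAP1 (−0.78) and ACER2 (−0.74), a ceramidase, had the same form. They rose in cisplatin under the control gapmer (0.73, 0.95 and 0.84), and their responses of −0.17 to 0.17 with the SCAT7 gapmer did not pass. Their differences had limma adjusted p of 0.0325, 0.00992 and 0.0478 in that order. Unlike GRIN2C, they did not pass in the 8-library fit (limma adjusted p = 0.165, 0.123 and 0.133). Reads of a pseudogene may belong to its copies.

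GAS6-AS1, an antisense RNA of the growth factor gene GAS6, was another form, lower by 0.94 with the SCAT7 gapmer in cisplatin. It stood at 5.06 and 4.92 FPKM with the SCAT7 gapmer in cisplatin, at 4.48 and 5.1 FPKM with it in solvent, at 10.6 and 9.54 FPKM with the control gapmer in cisplatin and at 5.58 and 5.59 FPKM with it in solvent. The control gapmer cisplatin libraries stood above the other 6. The difference was −0.74 ± 0.124 (SE; limma adjusted p = 0.0175). Reads of this and the other antisense RNAs named here may come from the gene on the opposite strand.

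A second form was seen in 21 of the 76 genes lower in response, those in which cisplatin caused no called rise with the control gapmer. Their median response was −0.36 with the SCAT7 gapmer and 0.17 with the control gapmer. Cisplatin lowered 13 of them with the SCAT7 gapmer, against 1.26% of all genes. The order of these medians follows from the choice of the genes by their difference, which favours the count of 13 too. The SCAT7 gapmer had raised 20 of the 21 in solvent, where it raised 33.2% of all genes. The difference subtracts the effect in solvent, so the choice of the genes favours this count too. It was also seen in 70 of the 76, and it describes the genes only. The pseudogene FAUP4 stood at 56.7 and 50.9 FPKM with the SCAT7 gapmer in cisplatin, at 84.4 and 73.1 FPKM with it in solvent, at 14.3 and 11.9 FPKM with the control gapmer in cisplatin and at 10.3 in both control gapmer solvent libraries. Its difference was −0.87 ± 0.136 (SE; limma adjusted p = 0.0121). The long noncoding RNA PVT1, the neighbour of MYC, stood at 97.7 and 106 FPKM with the SCAT7 gapmer in cisplatin, at 138 and 129 FPKM with it in solvent, at 77.1 and 84.8 FPKM with the control gapmer in cisplatin and at 71.7 and 75.1 FPKM with it in solvent. It fell by 0.39 with cisplatin under the SCAT7 gapmer, and its difference was −0.53 ± 0.0861 (SE; limma adjusted p = 0.015). UNC13D, needed for granule release, and ZBTB46-AS2 were at −0.76 and −0.90.

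Some genes called higher were outside the mitosis and replication lists. PIF1, a helicase that unwinds DNA structures and telomeres, stood at 1.36 and 1.37 FPKM with the SCAT7 gapmer in cisplatin, at 1.45 and 1.52 FPKM with it in solvent, at 7.39 and 7.92 FPKM with the control gapmer in cisplatin and at 15.8 and 16.7 FPKM with it in solvent. Its level with the SCAT7 gapmer was low under both treatments, and it fell by 1.04 in cisplatin with the control gapmer. Its difference was 0.95 ± 0.12 (SE; limma adjusted p = 0.00475). WWOX, a very long gene, had the same form at 0.70 (limma adjusted p = 0.0343, and 0.156 in the 8-library fit). CDKN2C, the p18 inhibitor of CDK4 and CDK6, was at 0.85 (limma adjusted p = 0.0451, and 0.221 in the 8-library fit). Neither WWOX nor CDKN2C passed in that fit or with library weights (limma adjusted p = 0.0603 and 0.0732 with weights). CDH4, a cadherin, stood at 0.932 and 0.891 FPKM with the SCAT7 gapmer in cisplatin, at 1.12 and 1.1 FPKM with it in solvent, at 0.813 and 0.845 FPKM with the control gapmer in cisplatin and at 3.64 and 3.79 FPKM with it in solvent. Its control gapmer solvent libraries stood apart from the other 6, with a difference of 1.47 (limma adjusted p = 0.00249). CDH4 was named after its values were seen, as 1 of the 10 genes called in the 8-library fit. The antisense transcript ENSG00000272149 was highest with the SCAT7 gapmer in cisplatin, at 8.12 and 6.1 FPKM, against 3.14 to 4.33 FPKM in the other 6 libraries (difference 1.21; limma adjusted p = 0.00921).

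Over all genes tested, 0.93% were called for the difference, 0.488% higher and 0.442% lower. None of 30 tested genes of the Fanconi anaemia and homologous recombination pathways was called (median difference 0.14), nor any of 28 damage checkpoint genes (0.04) or 15 topoisomerases and their repair enzymes (0.03). The 1 called of 20 nucleotide excision repair genes was DDB2, and the 1 of 14 translesion genes was POLH, both p53 targets. Of 32 apoptosis regulators, FAS alone was called.

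Of 26 tested NF-kB targets, 25 had a difference below 0, as did 9537 of the 17198 genes, with a median of −0.23 against −0.02 over all genes. The difference was called lower in 1 of the 26, TNFAIP2 at −0.27, against 0.442% of all genes. The 8-library fit called none of them. The count was 0 without any 1 of the 4 control gapmer libraries or SCAT7 gapmer solvent replicate 1, 3 without SCAT7 gapmer solvent replicate 2 and 2 without SCAT7 gapmer cisplatin replicate 1. Their median response was −0.15 with the SCAT7 gapmer and 0.08 with the control gapmer. The ATF4 list had 2 of 26 called lower, SESN2 and CEBPB, against 0.442% of all genes, with a median of −0.12. The 8-library fit called neither. The count was 1 without control gapmer cisplatin replicate 2, without either control gapmer solvent library or without SCAT7 gapmer solvent replicate 1, and 5 without SCAT7 gapmer solvent replicate 2. Immediate early genes had 1 of 23, BTG2. The 38 interferon-stimulated genes had none, with responses of −0.22 and −0.23 in the same order. None was called among 29 NRF2 targets, which defend against oxidants, 31 genes of cholesterol and fatty acid synthesis, 26 of hypoxia and glycolysis, 21 of platinum transport and efflux, 16 YAP targets, 26 splicing regulators or 27 of 3′ end processing. Of 27 mesenchymal and matrix genes 1 was higher, LOXL2 at 0.27 (limma adjusted p = 0.0464), against 0.488% of all genes. LOXL2 did not pass with library weights (limma adjusted p = 0.0957) or in the 8-library fit (limma adjusted p = 0.257). A gene that misses the threshold here is not shown to have an equal response.

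**Figure D5:**
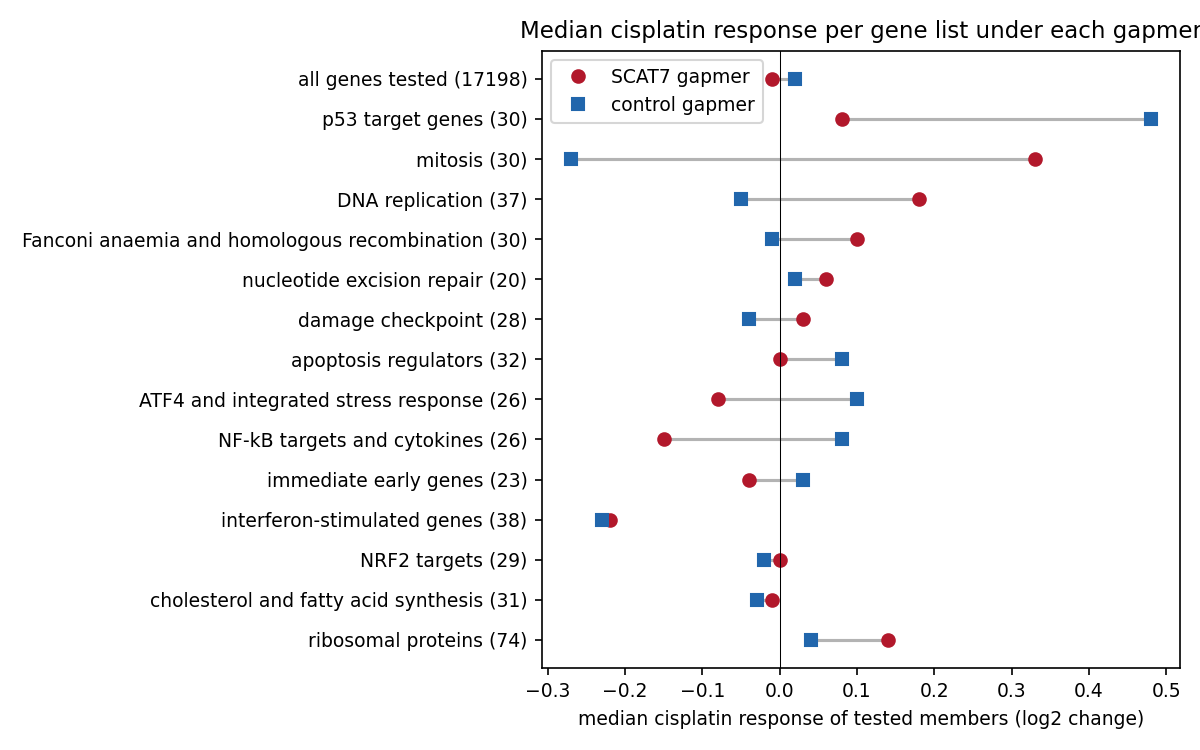
Median cisplatin response (log2 change) of the tested members of 14 gene lists and of all genes tested, with the SCAT7 gapmer (circles) and with the control gapmer (squares), with the number tested in brackets. The p53 list is at 0.08 and 0.48 and the mitosis list at 0.33 and −0.27, in that order, and the interferon list is at −0.22 and −0.23.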

How the data were processed

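RNA from 16 libraries was sequenced after oligo(dT) selection, per the labels' protocols. The authors deposited FPKM values for 60448 gene identifiers, made with TopHat2 and HTSeq 0.6.1 on hg38, as listed in the submitters' processing notes. Which annotation was counted, and whether by strand, is not given in the sources used here. All 16 deposited columns were mapped by their names. Names and hg38 positions came from GENCODE release 29.

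Testing took the 17198 genes that averaged 0.5 FPKM or more across the 16 libraries, on log2(FPKM + 0.5), a scale that understates changes of low genes. One limma model (3.58.1, R 4.3.3) had 1 mean for each of 8 groups, a trended prior, two-sided tests and Benjamini-Hochberg adjustment at 0.05. The SE values are of the fitted difference. Whether replicates were separate cultures is not in the labels, so p-values cover the spread between 2 libraries a group, which may be technical. On simulated data (17198 genes) the test of the difference in response recovered 44% of changes of 0.5 on the log2 scale. It recovered 77% of changes of 1, with 6.92% of calls false. The simulation gave each gene the same spread in all groups. The real replicates were farther apart with the SCAT7 gapmer in cisplatin (median gap 0.122) than with the control gapmer in cisplatin (0.0665). These rates therefore may not hold for the real libraries.

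Depth was recovered from low FPKM values, 74.4% to 81% of which were whole reads at a tolerance of 0.02; it is approximate. The comparisons share libraries: each simple effect uses 4 of the 8 libraries of the difference in response.

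The rule for named genes took TOP1, YBX1, HNRNPK, MDM2, CDKN1A, ELF3 and ELF3-AS1, the 15 largest positive and 15 largest negative differences among called genes with at least 5 FPKM in the highest group and 1 sign in all 16 ways of taking 1 library a group, and up to 4 called members per list and direction; the other members of lists named in the text were chosen after their values were seen. The members and lists were chosen with earlier results of these data known, so lists are described by counts and medians with no set test. Alternatives were a fit of the 8 transfected libraries, library weights, other pseudocounts, filters and scalings, no trend, a replicate block and leaving out each library.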

Additional observations from a re-analysis of the deposited data

Results flagged for a closer look

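The cisplatin response differed between the SCAT7 gapmer and the control gapmer, by a test of the difference itself, for 160 of 17198 genes (limma, Benjamini-Hochberg adjusted). CDKN1A and FDXR shared the smallest adjusted p, 1.38e-05, with differences of −0.66 and −0.70. Groups of 2 libraries were too small to look for single outlying libraries.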

How the results depend on the processing

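The count of 160 genes with a difference in response (84 higher, 76 lower) was within 1.5 times under pseudocounts of 0.1 and 1, a filter at 1 FPKM, median ratio scaling and quantile normalization. Elsewhere the cause of the change was not tested. The fit of the 8 transfected libraries called 10 genes (4 higher, 6 lower), 0 for cisplatin with the SCAT7 gapmer against 719, and 146 for cisplatin with the control gapmer against 435. Library weights gave 110 genes, 47 of them lower, and 11 and 1018 for the cisplatin responses in that order. No filter on low values gave 262 genes, 146 of them lower. Without a trend in the prior the count was 75 (35 higher, 40 lower), with 308 for cisplatin with the SCAT7 gapmer. Leaving out 1 library gave 45 to 462 genes (18 to 257 higher, 25 to 205 lower), 9 to 1626 for cisplatin with the SCAT7 gapmer, 137 to 571 for cisplatin with the control gapmer, 6650 to 8585 for the SCAT7 gapmer in cisplatin and 7898 to 9987 for it in solvent. For the simple effects and the list counts, alternatives other than the 8-library fit were chosen after seeing the data. A library left alone in its group was assumed to vary like the other groups. None of the 48 named genes changed sign under any of 18 alternatives; of the 43 called, 15 stayed called in all alternatives other than the 8-library fit, and 5 of these 15 (CDKN1A, FDXR, GDF15, GRIN2C and PLK1) in that fit too.

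Whether replicate numbers pair the samples is not settled. The correlation of replicate differences between groups was 0 to 0.11, and over 0.1 only between the SCAT7 gapmer groups. On the second principal component (7.48% of the variance), however, the second replicate lay above the first in every transfected group. With the replicate block 90 genes were called (47 higher, 43 lower), with 266 and 294 for the cisplatin responses with the SCAT7 gapmer and the control gapmer. The lower depth of the SCAT7 gapmer libraries limits the genes of low level, ELF3-AS1 among them.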
